A study of Mus musculus with 6 samples.

Results

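The genes described here encode enzymes that make drugs, bile acids, steroids and lipid peroxidation products soluble for export, measured in sorted epithelial cells of the mouse small intestine with and without the transcription factor c-Maf. They were taken by name, as protein-coding rows of the gene table whose symbols belong to the glutathione S-transferases (Gsta, Gstm, Gstp, Gstt, Gstk, Gstz, Gsto), the membrane-bound Mgst genes, the UDP-glucuronosyltransferases (Ugt1a, Ugt2), the sulfotransferases (Sult), the carboxylesterases (Ces1, Ces2), the quinone reductases (Nqo) and the epoxide hydrolases (Ephx). They were also selected on their level: a sum of at least 60 counts over the 6 libraries of both genotypes was required. This kept 54 genes of the 69 with such names and of the 23390 genes in the table. The other 15 held 1 to 43 counts in all 6 libraries together. Ces1b with 67, Ces2f with 73 and Ugt1a9 with 77 summed counts were the members just inside the limit, and Sult6b1 with 43 counts was the gene just outside it.

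RNA came from viable C57BL/6 mouse cells sorted as negative for CD45, a leukocyte surface protein, and positive for EpCAM, an epithelial one. In the Vil.Cre Maf.flox group (3 libraries), Cre under the villin promoter deletes floxed Maf throughout the intestinal epithelium, and the Maf.flox group (3 libraries) carried the floxed allele without Cre. No group had Cre without floxed Maf, so an action of Cre and the loss of c-Maf cannot be told apart. Age, sex and litter were not labelled, and nothing states that each library came from a separate animal. The p-values therefore reflect the spread among the libraries alone, which may be technical in part. By Xist and Y-linked counts each group held libraries of both sexes, so those of a group were not all from the same animal.

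Libraries held 17464355 to 24802525 counts, so that a normalised level of 1 CPM (counts scaled to library size) stood for 17.5 to 24.8 counts. Maf itself had 0.81, 0.059 and 0.043 CPM in the 3 Vil.Cre Maf.flox libraries, against 395, 292 and 185 CPM in the 3 Maf.flox libraries. Xist and Y-linked counts placed 2 males and 1 female in the Vil.Cre Maf.flox group and 1 male and 2 females in the Maf.flox group. Summed CPM of 6 epithelial genes was 14622 to 18863 in Vil.Cre Maf.flox and 15426 to 17536 in Maf.flox. The 11 immune genes found in the table summed to 22.4 to 31.1 CPM in Vil.Cre Maf.flox and 19.4 to 27.6 CPM in Maf.flox. Lcp1 alone had 12.9 to 22.7 CPM of this. Ptprc, the CD45 gene, had 0.10, 0.59 and 0.26 CPM in Vil.Cre Maf.flox and 0.84, 2.29 and 0.28 CPM in Maf.flox. Of the 5 immune genes with enough counts to test, 2 (Ptprc among them) had log2 fold changes below 0 and 3 above. The 6 stromal and endothelial genes together stayed under 1 CPM in each library.

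Conjugating enzymes join a polar group to a foreign or endogenous molecule: glutathione S-transferases add glutathione, UDP-glucuronosyltransferases add glucuronic acid, and sulfotransferases add sulfate. The carboxylesterases, epoxide hydrolases and quinone reductases counted with them do not conjugate. They hydrolyse esters and epoxides or reduce quinones, often giving the group on which conjugation takes place. In the small intestine these enzymes lie mainly in absorptive enterocytes, where they act on swallowed compounds before these reach the liver.

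The 54 genes together took 0.390, 0.492 and 0.429% of all counts in the Vil.Cre Maf.flox libraries and 0.622, 0.540 and 0.454% in the Maf.flox libraries. Lengths differ between genes, so levels were compared between genes on the deposited FPKM values (fragments scaled to gene length and library size). The carboxylesterase Ces2e had the highest mean over the 6 libraries, 365 FPKM, followed by the pi-class transferase Gstp1 with 281 FPKM, Mgst3 with 246 FPKM, the omega-class Gsto1 with 208 FPKM, Ces2a with 163 FPKM, Mgst1 with 134 FPKM, Ugt2b34 with 128 FPKM and Sult1d1 with 101 FPKM. Ces2f and Ces1b, the members with the fewest counts, were at 0.12 and 0.27 FPKM.

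**Figure D1:**
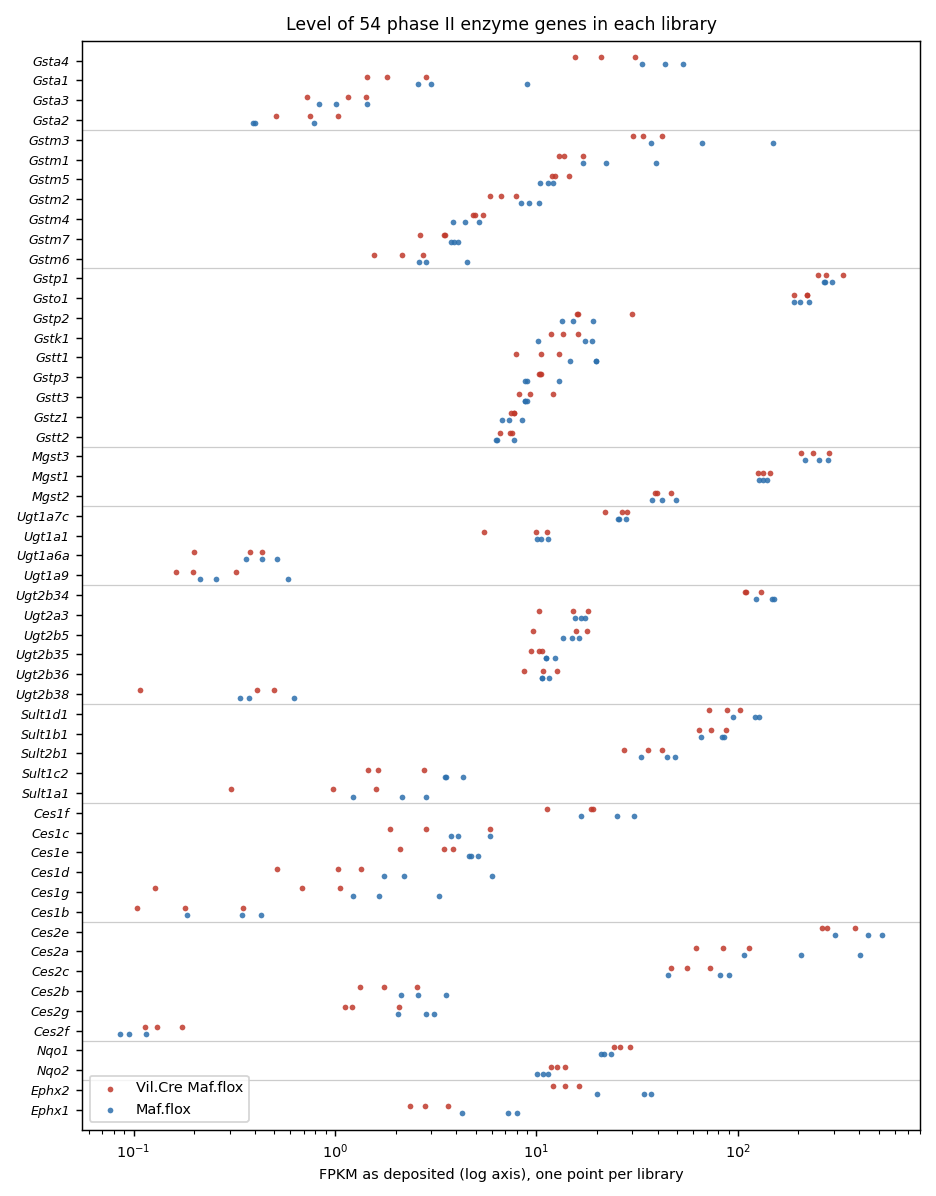
Deposited FPKM (log axis) of the 54 genes, 1 point per library, with Vil.Cre Maf.flox above Maf.flox in each row and families separated by lines. Levels span from Ces2f at 0.12 to Ces2e at 365 FPKM on average, and the points of the Ephx genes, Gstt1, Gsta4 and Sult1c2 lie apart between genotypes while those of Mgst1 and Gsto1 lie together.

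Between genotypes, the epoxide hydrolases, carboxylesterases, alpha- and mu-class transferases and sulfotransferases had the lowest median log2 fold changes, and no single gene of the 54 passed the test over all genes. All 54 were tested with edgeR's quasi-likelihood test and Benjamini-Hochberg adjustment over 13740 genes. Of these genes 0.546% had an adjusted p at or under 0.05 (0.357% lower, 0.189% higher in Vil.Cre Maf.flox), and of the 54 members 0 did. The smallest adjusted p values among the members were 0.0814 for Ephx2, 0.0929 for Ephx1 and 0.105 for Gstt1. An unadjusted p under 0.05 was found for 17 members (31.5%, against 16.4% of all tested genes): for 15 on the lower side (27.8%), where 9.25% of all tested genes had one, and for 2 on the higher side (3.70%), where 7.11% had one. The count of 17 was 9 without Vil.Cre Maf.flox replicate 1 (16.7%, against 9.03% of all tested genes). It was 10 without Vil.Cre Maf.flox replicate 3 (18.5%), where the share of all tested genes was as high (18.8%). DESeq2 called 8 members, all lower in Vil.Cre Maf.flox (Ephx2, Ces1d, Gsta4, Gstt1, Ephx1, Sult1c2, Gstm1 and Ces1g), at a background of 5.09% of its tested genes, and limma-voom called 0. EdgeR without a filter on low counts called 2 members, at a background of 1.58%, and with a replicate block 4 members, at a background of 3.2%. Without Maf.flox replicate 3 it called 4 members, at a background of 5.0%.

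Log2 fold changes of Vil.Cre Maf.flox over Maf.flox were below 0 for 40 of the 54 members (74.1%, against 51.6% of all tested genes). The median was -0.29 over the members and -0.01 over all tested genes. At least 2-fold lower levels were estimated for 8 members (14.8%, against 3.44% of all tested genes) and at least 2-fold higher levels for 0 (1.11% of all tested genes). In 12 members (22.2%) every Vil.Cre Maf.flox library was below every Maf.flox library, which held for 10.5% of all tested genes. In 2 members (3.70%), both quinone reductases, every Vil.Cre Maf.flox library was above every Maf.flox library, against 10.1% of all tested genes (20.6% in either direction). With upper quartile scaling the first of these counts was 10, without Gstm2 and Ugt2b35, and the share of all tested genes was 9.41%. RNA was measured in bulk, and fewer cells of a type and less RNA per cell cannot be told apart.

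**Figure D2:**
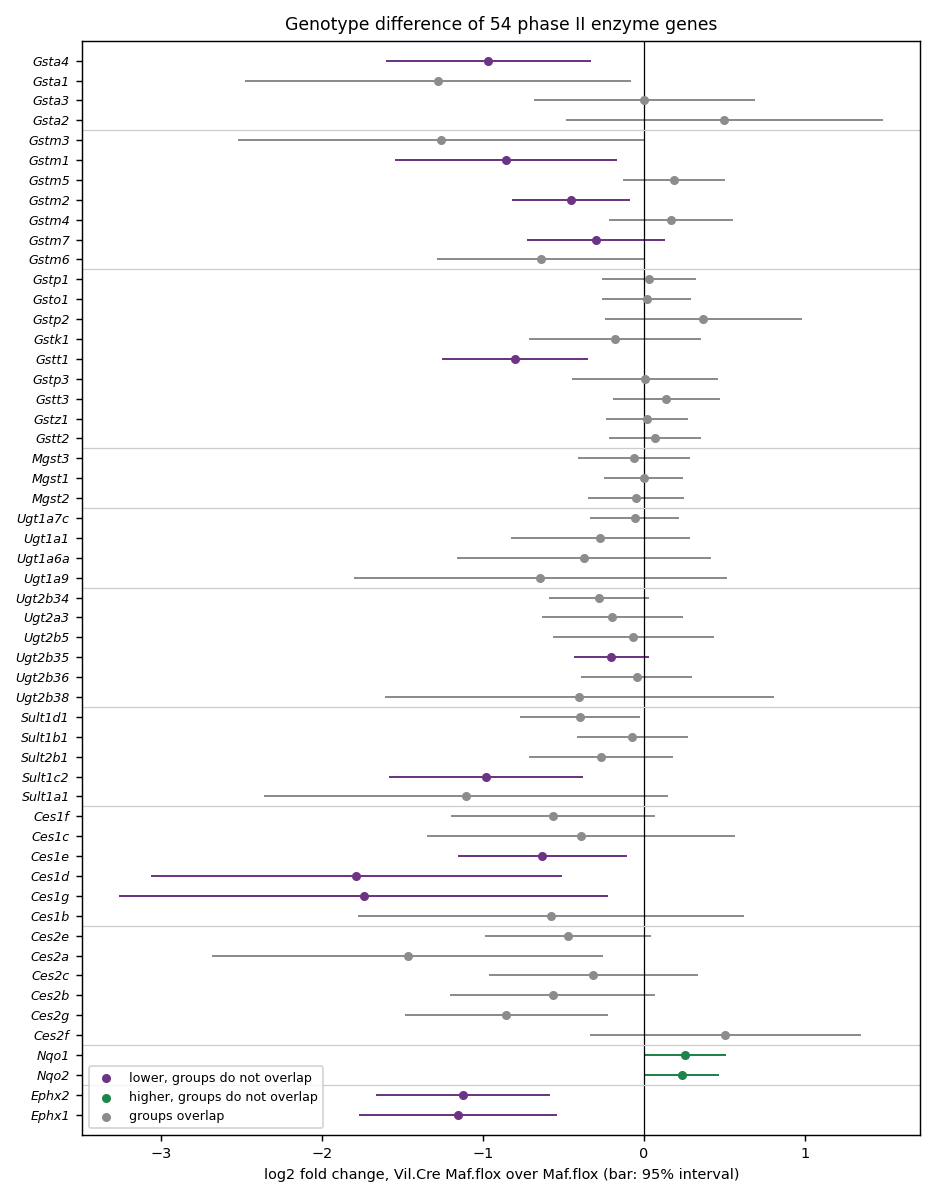
Log2 fold change of each gene (Vil.Cre Maf.flox over Maf.flox) with its 95% interval from edgeR, families separated by lines. The 12 purple genes were lower and the 2 green genes higher in every Vil.Cre Maf.flox library than in every Maf.flox library, and the Mgst genes lie near 0.

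Levels of many members also differed between the libraries of a genotype. Maf.flox replicate 1 was the highest of the 6 libraries for 20 members (37.0%), and it was the highest for 18.4% of all tested genes. Vil.Cre Maf.flox replicate 2 was the highest for 12 members (22.2%, against 14.2% of all tested genes). The 8 enterocyte marker genes summed to 7307, 9689 and 5618 CPM in Vil.Cre Maf.flox replicates 1, 2 and 3 and to 23159, 21598 and 10496 CPM in Maf.flox replicates 1, 2 and 3. Among these markers 7 of 8 had log2 fold changes below 0, with a median of -1.26, and the brush border aminopeptidase gene Anpep was called. Within Maf.flox, replicate 1 was the highest and replicate 3 the lowest in the marker sum and in the summed FPKM of the Gsta, Gstm, Sult, Ces1 and Ces2 genes. The same order held for the Mgst genes (464, 423 and 394 FPKM in Maf.flox replicates 1, 2 and 3), whose median log2 fold change was -0.05. The part of enterocyte number or maturity in the differences below was not tested.

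**Figure D3:**
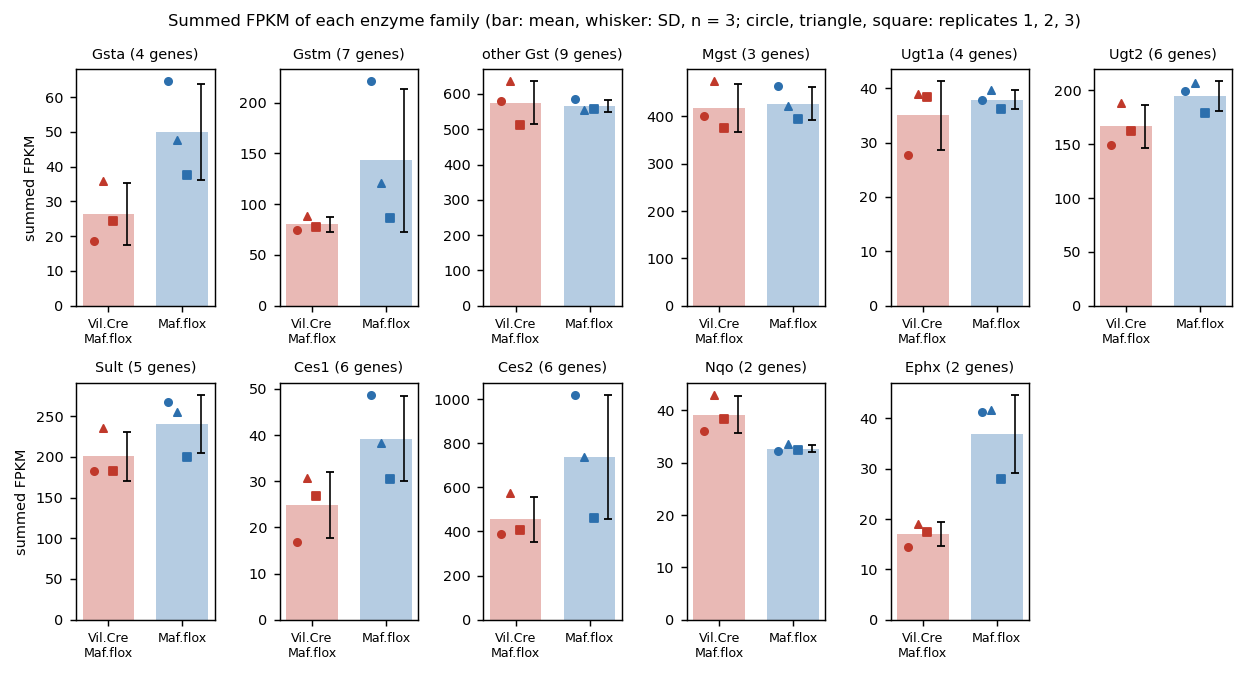
Summed FPKM of each enzyme family per library, with Vil.Cre Maf.flox left of Maf.flox. Bars are means and whiskers SD (n = 3). Maf.flox replicate 1 (circle) stands highest in the Gsta, Gstm, Sult, Ces1 and Ces2 panels, and the Gsta, Ephx and Nqo sums do not overlap between genotypes.

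The epoxide hydrolases had the lowest median log2 fold change of the 11 families, -1.14, and both members were lower in every Vil.Cre Maf.flox library. Their summed level was 17.01 ± 2.37 FPKM in Vil.Cre Maf.flox and 37.0 ± 7.76 FPKM in Maf.flox (SD, n = 3 each). Ephx2 (GRCm38 chromosome 14, 66084374 to 66124500, minus strand) encodes soluble epoxide hydrolase, which opens the epoxides of fatty acids. It had 29.9, 40.5 and 34.2 CPM in the Vil.Cre Maf.flox libraries, against 91.3, 86.6 and 50.2 CPM in the Maf.flox libraries. The groups did not overlap, although Maf.flox replicate 3 was closer to the Vil.Cre Maf.flox libraries than to the other controls. The log2 fold change was -1.12 (95% interval -1.66 to -0.59, adjusted p = 0.0814, edgeR).

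Ephx1 (chromosome 1, 180976210 to 181020904, minus strand) encodes microsomal epoxide hydrolase, which acts on epoxides of polycyclic hydrocarbons and drugs. It was at a lower level, with 4.56, 5.46 and 7.06 CPM in the Vil.Cre Maf.flox libraries, against 8.32, 14.3 and 15.7 CPM in the Maf.flox libraries. Here Maf.flox replicate 1 was the lowest control, and the groups did not overlap. Its log2 fold change was -1.16 (95% interval -1.76 to -0.55, adjusted p = 0.0929, edgeR). Ephx3 and Ephx4 held 6 and 5 counts and were not members.

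Carboxylesterases of the Ces2 family, which cleave esters and amides of drugs and acylglycerols and in mice sit side by side on chromosome 8 (104734003 to 104969537 for the 6 members), included the most abundant member. The family summed to 456 ± 101 FPKM in Vil.Cre Maf.flox and 739 ± 280 FPKM in Maf.flox (SD, n = 3 each), and the log2 fold change was below 0 for 5 of 6 members, with a median of -0.52. Ces2e, the most abundant, had 747, 1030.3 and 702 CPM in Vil.Cre Maf.flox, against 1399.8, 1211 and 823 CPM in Maf.flox. The groups overlapped because Vil.Cre Maf.flox replicate 2 exceeded Maf.flox replicate 3. Its log2 fold change was -0.47 (95% interval -0.98 to 0.04, adjusted p = 0.346, edgeR).

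Ces2a had 146, 269 and 197 CPM in Vil.Cre Maf.flox, against 945, 489.9 and 256 CPM in Maf.flox. The control libraries spread over a wider range than the distance between the groups, and the lowest of them was below Vil.Cre Maf.flox replicate 2. The log2 fold change of -1.47 (95% interval -2.67 to -0.26, adjusted p = 0.23, edgeR) was -0.86 without Maf.flox replicate 1. Without Maf.flox replicate 3 Ces2a was called (adjusted p = 0.0397). Ces2g, at 4.01, 4.35 and 7.40 CPM in Vil.Cre Maf.flox and 7.27, 10.2 and 11.2 CPM in Maf.flox, had a log2 fold change of -0.85 (adjusted p = 0.182, edgeR). Ces2b had one of -0.57, Ces2c one of -0.31 and Ces2f, near the count limit, one of 0.50, with 95% intervals from -1.20 to 0.06, from -0.96 to 0.33 and from -0.33 to 1.34. Of the 75-base stretches in Ces2c transcripts 22.1% also occur in transcripts of other genes, and in Ces2a 11.4%, so the counting could move reads between copies.

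The Ces1 carboxylesterases, a cluster of chromosome 8 (93056728 to 93337308) whose liver members cleave ester drugs and stored lipids, were expressed at a much lower level. They summed to 24.9 ± 7.12 FPKM in Vil.Cre Maf.flox and 39.2 ± 9.17 FPKM in Maf.flox (SD, n = 3 each), and all 6 members had log2 fold changes below 0, with a median of -0.60. Ces1d, known in mice as a triacylglycerol hydrolase, had 1.22, 2.47 and 3.17 CPM in Vil.Cre Maf.flox, against 14.2, 5.31 and 4.17 CPM in Maf.flox. The groups did not overlap, and Maf.flox replicate 1 was far above the other controls. The log2 fold change of -1.79 (95% interval -3.06 to -0.52, adjusted p = 0.178, edgeR) was -1.04 without that library.

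Ces1g, an esterase that in mouse liver and intestine acts on lipids, had 0.30, 2.52 and 1.63 CPM in Vil.Cre Maf.flox, against 7.78, 4.01 and 2.94 CPM in Maf.flox. The groups again lay apart, and the log2 fold change was -1.74 (95% interval -3.25 to -0.23, adjusted p = 0.244, edgeR). Ces1e was also lower in each Vil.Cre Maf.flox library, with 4.56, 8.46 and 7.57 CPM against 10.3, 11.4 and 10.1 CPM in Maf.flox and a log2 fold change of -0.63 (adjusted p = 0.22, edgeR). The most abundant gene, Ces1f, had 36.9, 61.5 and 62.6 CPM in Vil.Cre Maf.flox and 99.9, 83.4 and 54.97 CPM in Maf.flox, which overlap. Ces1c had a log2 fold change of -0.39 and Ces1b, with 67 counts in all, one of -0.58. Both intervals reached above 0.

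The quinone reductases were the only family with both groups apart and the higher level in Vil.Cre Maf.flox. Their FPKM sum was 39.2 ± 3.56 in Vil.Cre Maf.flox and 32.7 ± 0.69 in Maf.flox (SD, n = 3 each). Nqo1 (chromosome 8, 107388225 to 107403206, minus strand), a flavoenzyme that reduces quinones with NADPH or NADH and a standard readout of the stress factor NRF2, had 37.4, 45.4 and 39.9 CPM in Vil.Cre Maf.flox, against 32.1, 36.8 and 33.8 CPM in Maf.flox. Nqo2 (chromosome 13, 33964687 to 33988443, plus strand) had 47.9, 56.1 and 50.6 CPM in Vil.Cre Maf.flox, against 45.7, 41.3 and 44.1 CPM in Maf.flox. The gaps between the groups were small next to the spread within Vil.Cre Maf.flox.

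The log2 fold changes were 0.26 for Nqo1 (95% interval 0.01 to 0.51, adjusted p = 0.29) and 0.24 for Nqo2 (95% interval 0.01 to 0.46, adjusted p = 0.28, both edgeR). Of the Nqo2 exons 18.9% overlap Serpinb6a on the other strand, and whether reads were counted by strand is not given in the sources used here.

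**Figure D4:**
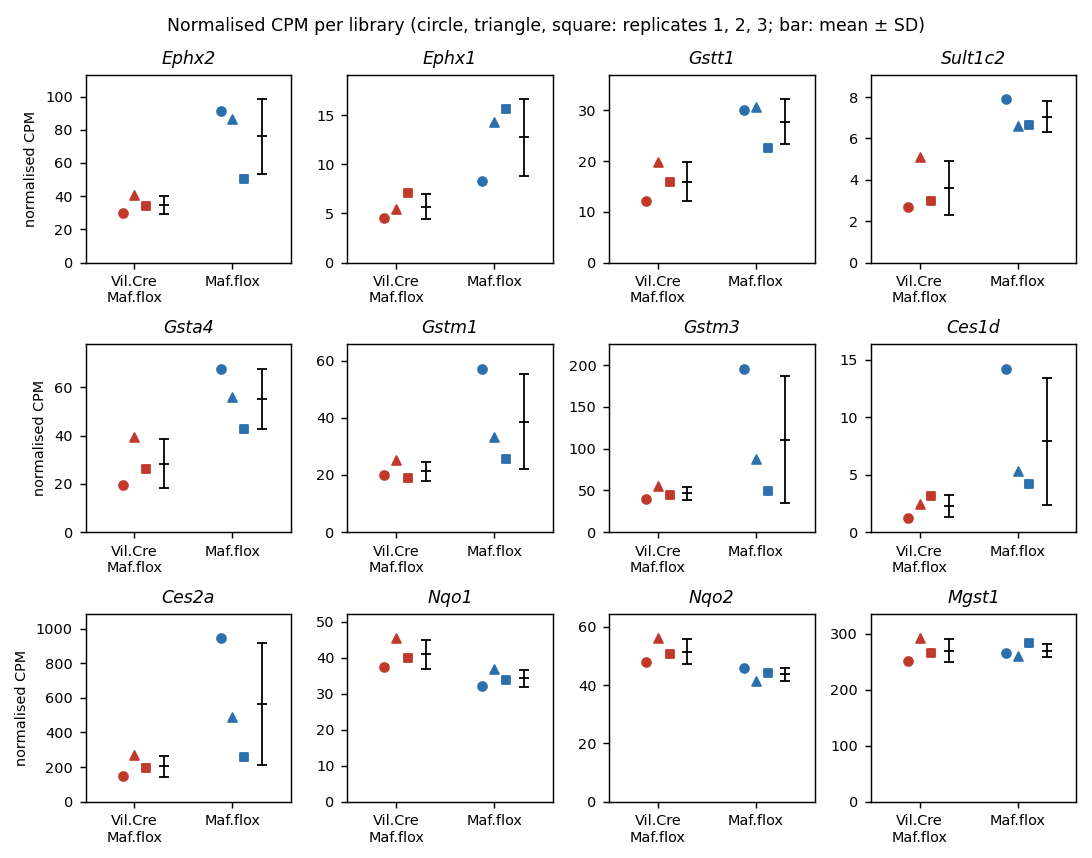
Normalised CPM of 12 members in each library, with Vil.Cre Maf.flox left of Maf.flox. Bars give mean ± SD (n = 3 each). Ephx2, Ephx1, Gstt1, Sult1c2 and Gsta4 separate the genotypes downward in Vil.Cre Maf.flox, Maf.flox replicate 1 (circle) stands above the other controls in Gstm3, Ces1d and Ces2a, and Mgst1 has the same mean in both groups.

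Of the 20 glutathione S-transferases outside the Mgst genes, 9 had log2 fold changes below 0 and 11 above, and members of a class differed in sign. The alpha class (Gsta), enzymes of lipid peroxide and drug detoxification, summed to 26.4 ± 8.82 FPKM in Vil.Cre Maf.flox and 50.04 ± 13.7 FPKM in Maf.flox (SD, n = 3 each). Gsta4 (chromosome 9, 78182774 to 78209349, plus strand), which conjugates the lipid peroxidation product 4-hydroxynonenal, made up most of this. It had 19.5, 39.3 and 26.4 CPM in Vil.Cre Maf.flox, against 67.4, 56.1 and 42.6 CPM in Maf.flox. The groups did not overlap, with Vil.Cre Maf.flox replicate 2 close below Maf.flox replicate 3. The log2 fold change was -0.97 (95% interval -1.60 to -0.34, adjusted p = 0.153, edgeR).

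Gsta1 had 1.37, 2.70 and 1.71 CPM in Vil.Cre Maf.flox and 8.49, 2.50 and 2.89 CPM in Maf.flox, where the difference rested on Maf.flox replicate 1: the log2 fold change of -1.28 was -0.49 without it. Gsta2 and Gsta3 had log2 fold changes of 0.50 and 0.00, with 95% intervals from -0.48 to 1.48 and from -0.68 to 0.68. Of the 75-base stretches of Gsta1 84.7% also occur in other genes, Gsta2 first among them, so these 2 genes cannot be separated with certainty.

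The 7 mu-class genes (Gstm), which conjugate electrophilic drugs and quinones, lie together on chromosome 3 (107895821 to 108044894) and differed in sign. Of these, 5 had log2 fold changes below 0, while Gstm4 and Gstm5, at the ends of the cluster, had 0.17 and 0.19. Gstm3, the most abundant, had 39.5, 55.3 and 44.3 CPM in Vil.Cre Maf.flox, against 196, 87.9 and 48.9 CPM in Maf.flox. The groups overlapped, and the log2 fold change of -1.26 (adjusted p = 0.303, edgeR) was -0.55 without Maf.flox replicate 1. Gstm1 had 20.03, 25.1 and 18.9 CPM in Vil.Cre Maf.flox, against 57.2, 33.2 and 25.4 CPM in Maf.flox, a narrow separation. Its log2 fold change was -0.86 (95% interval -1.54 to -0.18, adjusted p = 0.215, edgeR), and -0.45 without that library.

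Gstm2 was less variable, with 11.2, 9.92 and 13.2 CPM in Vil.Cre Maf.flox and 13.9, 17.6 and 15.6 CPM in Maf.flox, and had a log2 fold change of -0.45 (95% interval -0.81 to -0.09, adjusted p = 0.212, edgeR). Gstm7 had one of -0.30 and Gstm6 one of -0.64. Gstm3 shares 21.6% and Gstm1 11.7% of its 75-base stretches with other genes of the cluster or with pseudogenes.

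The theta-class gene Gstt1 (chromosome 10, 75783813 to 75798584, minus strand), whose enzyme acts on small halogenated compounds and epoxides, stood apart from its neighbours. It had 12.1, 19.8 and 15.96 CPM in Vil.Cre Maf.flox, against 30.1, 30.6 and 22.6 CPM in Maf.flox. Every Vil.Cre Maf.flox library was below every control. The log2 fold change was -0.80 (95% interval -1.25 to -0.35, adjusted p = 0.105, edgeR). Gstt3 and Gstt2, in the same 75774115 to 75837424 interval, had log2 fold changes of 0.14 and 0.07, with 95% intervals from -0.19 to 0.46 and from -0.21 to 0.35. The difference between these neighbours was not tested. Of the 75-base stretches of Gstt3 11.5% also occur in Gm20441, a gene that overlaps it.

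Among transferases of the other classes, Gstp1, Gstp3, Gsto1 and Gstz1 had nearly equal means in both groups, as had the membrane-bound Mgst genes. The means of Gstp2 and Gstk1 were less alike. Gstp1, the pi-class enzyme and the most abundant transferase, had 207, 252 and 189 CPM in Vil.Cre Maf.flox, against 204, 205 and 223 CPM in Maf.flox, with a log2 fold change of 0.03 (95% interval -0.25 to 0.32). Gsto1, which reduces dehydroascorbate and arsenic species, had a log2 fold change of 0.02 (95% interval -0.25 to 0.29). Gstp2 had one of 0.37 (95% interval -0.24 to 0.98), with 23.0 CPM in Vil.Cre Maf.flox replicate 1 and 12.4 and 12.1 CPM in the other 2. Gstk1, Gstz1 and Gstp3 had -0.18, 0.02 and 0.01. Gstp2 shares 50.1% of its 75-base stretches with Gstp1 and a pseudogene, and Gstp1 shares 29.2% of its own with Gstp2 and that pseudogene. Mgst1, a microsomal transferase and peroxidase, had 252, 292.5 and 265 CPM in Vil.Cre Maf.flox and 267, 261 and 283 CPM in Maf.flox, with a log2 fold change of 0.00 (95% interval -0.24 to 0.24). Mgst2 and Mgst3 had -0.05 and -0.06. For the Mgst genes and Gsto1 the intervals leave out a 2-fold difference in either direction.

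No UDP-glucuronosyltransferase had an unadjusted p under 0.05, and the log2 fold changes of all 10 members were below 0. The 6 Ugt2 members on chromosome 5 (86889767 to 87424203), which act on steroids, bile acids and drugs, all had log2 fold changes below 0, from -0.40 to -0.04, with a median of -0.20. Ugt2b34, the most abundant, had 473, 562 and 467 CPM in Vil.Cre Maf.flox, against 633, 657 and 533 CPM in Maf.flox. Only Vil.Cre Maf.flox replicate 2 reached into the control range, and the log2 fold change was -0.28 (95% interval -0.58 to 0.02, adjusted p = 0.348, edgeR). Ugt2b35 had 34.4, 31.6 and 35.7 CPM in Vil.Cre Maf.flox, against 37.4, 41.8 and 37.9 CPM in Maf.flox, apart by a small gap, with a log2 fold change of -0.20. Ugt2b36 and Ugt2b38 had log2 fold changes of -0.04 and -0.40 with overlapping groups. Ugt2a3 and Ugt2b5 had -0.20 and -0.07, and both were above 0 without Vil.Cre Maf.flox replicate 1, the lowest library for each. Of the 75-base stretches of Ugt2b5 30.4%, and of Ugt2b38 28%, also occur in other Ugt2 genes.

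The Ugt1a genes are alternative first exons of 1 locus on chromosome 1 (88070800 to 88220002) joined to the same last exons, with a median log2 fold change of -0.32 over the 4 members. Of their 75-base stretches 51.2 to 59.4% occur in other genes, so a read in the common exons belongs to none of them alone. Ugt1a7c had 91.7, 119.6 and 111 CPM in Vil.Cre Maf.flox and 108, 119.6 and 108 CPM in Maf.flox, with a log2 fold change of -0.06 (95% interval -0.33 to 0.21). Ugt1a1, the bilirubin-conjugating enzyme, had 12.2, 22.1 and 25.1 CPM in Vil.Cre Maf.flox and 25.3, 23.8 and 22.6 CPM in Maf.flox, where 1 Vil.Cre Maf.flox library was low and the other 2 were within or near the control range. It had a log2 fold change of -0.27 (95% interval -0.82 to 0.28). Ugt1a6a and Ugt1a9 were under 2.5 CPM in each library and had log2 fold changes of -0.37 and -0.64 with intervals wide on both sides of 0.

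Cytosolic sulfotransferases had log2 fold changes below 0 for all 5 members, with a median of -0.40 and a summed level of 201 ± 30.4 FPKM in Vil.Cre Maf.flox and 241 ± 35.8 FPKM in Maf.flox (SD, n = 3 each). Sult1c2 (chromosome 17, 53829637 to 53846339, minus strand), of a family that sulfates small phenols, had 2.69, 5.11 and 3.00 CPM in Vil.Cre Maf.flox, against 7.90, 6.61 and 6.64 CPM in Maf.flox. The groups did not overlap, and the log2 fold change was -0.98 (95% interval -1.58 to -0.38, adjusted p = 0.127, edgeR). Sult1d1, which in mice sulfates catecholamines and phenols, was the most abundant, with 176, 252 and 216 CPM in Vil.Cre Maf.flox and 311, 302 and 235.5 CPM in Maf.flox. It had a log2 fold change of -0.40 (95% interval -0.76 to -0.03, adjusted p = 0.265, edgeR).

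The next most abundant sulfotransferase genes had intervals on both sides of 0. Sult1b1, a thyroid hormone and phenol sulfotransferase beside Sult1d1 on chromosome 5, had a log2 fold change of -0.07 (95% interval -0.41 to 0.27), and Sult2b1, the cholesterol sulfotransferase, one of -0.27 (95% interval -0.71 to 0.17). Sult1a1, at 0.46, 1.47 and 2.40 CPM in Vil.Cre Maf.flox and 1.85, 3.28 and 4.32 CPM in Maf.flox, had one of -1.11, with overlapping groups and an interval from -2.35 to 0.14.

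Promoters of the members were searched for short sites, since c-Maf binds DNA. The windows are RefSeq's for GRCm38.p6, from 250 bases before to 50 after a start that RefSeq gives for the gene. Of the 54 members, 48 had at least 1. Ces1f, Ces1d, Ephx2, Ces2b, Gstt2 and Gsta4 had none. The 5 windows that follow are printed 5′ to 3′ on the gene's strand, with matches in capitals. Gstm1, Sult1c2 and Ces1e are shown as members whose groups did not overlap and whose windows hold TGCTGA, which reads TCAGCA on the other strand. It is an outer arm of the palindromic Maf recognition element and not the whole element. Gstm1 has another window, chr3:108017924-108018223, with no match. Ephx1 is shown as a member whose groups did not overlap and whose window holds none of the sites searched. The Ephx1 and Sult1c2 windows lie inside the gene intervals given above. On the minus strand those intervals start at 181020904 for Ephx1 and 53846339 for Sult1c2, and the bases there were not searched. Gstp1 is shown as an abundant transferase with a log2 fold change of 0.03, whose window holds the AP-1 site TGACTCA (as TGAGTCA) overlapping TCAGCA. The windows lie at chr3:108017769-108018068, chr17:53845909-53846208, chr8:93229570-93229869, chr1:181017520-181017819 and chr19:4037863-4038162, all on the minus strand.
Gstm1: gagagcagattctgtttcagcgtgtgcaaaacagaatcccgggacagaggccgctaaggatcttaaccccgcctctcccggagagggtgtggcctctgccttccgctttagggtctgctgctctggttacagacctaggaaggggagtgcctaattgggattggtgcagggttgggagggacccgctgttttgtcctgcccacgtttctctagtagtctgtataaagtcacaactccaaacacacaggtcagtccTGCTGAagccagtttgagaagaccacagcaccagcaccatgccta
Sult1c2: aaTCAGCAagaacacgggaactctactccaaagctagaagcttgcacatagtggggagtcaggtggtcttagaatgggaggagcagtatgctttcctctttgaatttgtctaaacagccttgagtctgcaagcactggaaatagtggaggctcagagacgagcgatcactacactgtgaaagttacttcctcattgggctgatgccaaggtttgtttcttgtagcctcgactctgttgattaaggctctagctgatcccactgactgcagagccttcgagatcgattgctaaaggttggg
Ces1e: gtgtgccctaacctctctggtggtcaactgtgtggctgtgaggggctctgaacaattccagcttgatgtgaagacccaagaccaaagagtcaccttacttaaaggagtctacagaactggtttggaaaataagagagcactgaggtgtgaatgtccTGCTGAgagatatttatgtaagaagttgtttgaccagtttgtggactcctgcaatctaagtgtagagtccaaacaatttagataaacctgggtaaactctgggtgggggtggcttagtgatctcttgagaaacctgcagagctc
Ephx1: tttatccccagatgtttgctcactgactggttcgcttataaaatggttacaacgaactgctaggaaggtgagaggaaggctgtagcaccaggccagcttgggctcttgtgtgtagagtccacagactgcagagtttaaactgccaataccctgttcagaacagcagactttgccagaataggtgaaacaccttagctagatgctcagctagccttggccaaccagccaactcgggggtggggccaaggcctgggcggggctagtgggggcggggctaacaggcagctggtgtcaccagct
Gstp1: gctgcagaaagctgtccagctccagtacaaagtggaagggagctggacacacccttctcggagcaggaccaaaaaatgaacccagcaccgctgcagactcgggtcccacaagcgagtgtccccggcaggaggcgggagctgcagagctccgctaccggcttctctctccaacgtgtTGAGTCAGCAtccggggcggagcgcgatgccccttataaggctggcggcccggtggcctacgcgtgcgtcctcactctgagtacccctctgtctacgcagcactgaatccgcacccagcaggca

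TGCTGA on either strand was found in the windows of 11 of 48 members (22.9%) and of 21.7% of 27025 genes with a window. The antioxidant response element core TGACNNNGC, which NRF2 with small Maf proteins binds, was found in 4 members (8.33%: Gsta3, Gstm5, Gstm7 and Mgst1) and in 14% of all genes. TGACTCA was found in 6 members (12.5%: Gstm5, Gstp1, Gstp2, Mgst2, Sult1b1 and Sult2b1) and in 5.95% of all genes. TNGCGTG, the site of the dioxin receptor, was found in 2 members (4.17%) and in 5.84% of all genes, and the HNF4 site CAAAGTCCA in 1 member, Sult1b1 (2.08%), and in 0.555% of all genes. Among the 12 members with a window and an unadjusted p under 0.05 on the lower side, 4 held TGCTGA (Ces1e, Gstm1, Gstm2 and Sult1c2), 1 held TNGCGTG, and 0 held TGACNNNGC, TGACTCA or CAAAGTCCA. These matches describe the letters of the windows and show no binding.

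Genes that supply the conjugating groups had log2 fold changes on both sides of 0. Of 12 glutathione supply genes, 5 had log2 fold changes below 0 and 7 above, and edgeR called 0 (5 had an unadjusted p under 0.05). Gsr, which regenerates glutathione from its oxidised form, had 578, 440.1 and 450.4 CPM in Vil.Cre Maf.flox, against 300.4, 287 and 323 CPM in Maf.flox, with no overlap. It had a log2 fold change of 0.69 (95% interval 0.38 to 1.00, adjusted p = 0.0697, edgeR). It was called by DESeq2 (adjusted p = 0.000136), which called 5.09% of its tested genes, and not by limma-voom (adjusted p = 0.0814). Chac1, which degrades glutathione, had 4.06, 2.76 and 3.12 CPM in Vil.Cre Maf.flox and 0.80, 1.98 and 1.33 CPM in Maf.flox. Its log2 fold change was 1.29 (adjusted p = 0.131, edgeR). DESeq2 called it (adjusted p = 0.0248) and limma-voom did not (adjusted p = 0.124). Pgd was also higher without overlap, with 591, 546 and 433 CPM in Vil.Cre Maf.flox, against 418, 376 and 360 CPM in Maf.flox. It had a log2 fold change of 0.44 (adjusted p = 0.178, edgeR). On the other side, Gclm, a subunit of the enzyme that starts glutathione synthesis, had 57.5, 65.1 and 66.1 CPM in Vil.Cre Maf.flox, against 118, 114 and 69.5 CPM in Maf.flox, with a log2 fold change of -0.68 (adjusted p = 0.148, edgeR). Oplah, which returns 5-oxoproline to glutamate, had one of -0.70 (adjusted p = 0.161, edgeR), and neither gene's groups overlapped.

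Of 12 tested NRF2 target and pathway genes outside the enzyme families, 6 were below 0 and 6 above, and 1 was called: Cbr1, a carbonyl reductase, fell to 53.7, 72.8 and 60.4 CPM in Vil.Cre Maf.flox, against 126, 129 and 97.2 CPM in Maf.flox. Its log2 fold change was -0.92 (95% interval -1.26 to -0.58, adjusted p = 0.0457, edgeR), and DESeq2 called it too (adjusted p = 1.56e-05). The call was lost (adjusted p 0.0505 to 0.234) with a stricter filter, limma-voom, a sex term, or any library other than Maf.flox replicate 3 left out. Akr1b8, an aldo-keto reductase, had a log2 fold change of 0.84 (adjusted p = 0.152, edgeR).

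In the glucuronic acid list (5 genes, 1 below 0 and 4 above, 0 called by edgeR), Gusb, the lysosomal enzyme that removes glucuronic acid, had 65.9, 43.0 and 43.8 CPM in Vil.Cre Maf.flox, against 26.4, 28.3 and 34.9 CPM in Maf.flox. Here too the groups lay apart, with a log2 fold change of 0.77 (adjusted p = 0.104, edgeR). DESeq2 called Gusb (adjusted p = 0.00491) and limma-voom did not (adjusted p = 0.124). Slc35b1, a nucleotide transporter of the endoplasmic reticulum, had a log2 fold change of 0.41. In the sulfate list (7 tested, 4 below 0 and 3 above, 0 called by edgeR), the sulfate transporter gene Slc26a2 had one of -0.74 (adjusted p = 0.217, edgeR). Of the alternatives, DESeq2 (adjusted p = 0.0407) and edgeR without Maf.flox replicate 3 (adjusted p = 0.0081) called Slc26a2. The others, such as limma-voom (adjusted p = 0.274), did not. Slc35b3, which carries the sulfate donor into the Golgi, had a log2 fold change of 0.27. Of 12 genes listed for methyl, acetyl and acyl conjugation, 6 were tested. Log2 fold changes were below 0 for 2 of the tested genes, -0.65 for Gnmt and -0.38 for Acsm3, and above 0 for 4. EdgeR called 0 of them.

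Of 6 pumps that export conjugates or drugs, 3 had log2 fold changes below 0 and 3 above, and edgeR called 0 (3 had an unadjusted p under 0.05). Abcc2, the apical exporter of glutathione and glucuronide conjugates, had 34.9, 57.6 and 59.7 CPM in Vil.Cre Maf.flox, against 188, 254.5 and 104 CPM in Maf.flox. All Vil.Cre Maf.flox libraries were below the lowest control, and the log2 fold change was -1.84 (95% interval -2.70 to -0.99, adjusted p = 0.0851, edgeR). DESeq2 called Abcc2 (adjusted p = 4e-08) and limma-voom did not (adjusted p = 0.104). Abcb1a, the drug exporter P-glycoprotein, had 114, 217.5 and 212 CPM in Vil.Cre Maf.flox and 622, 449.8 and 274 CPM in Maf.flox. It had a log2 fold change of -1.31 (adjusted p = 0.15, edgeR). Abcb1a too was called by DESeq2 (adjusted p = 0.000474) and not by limma-voom (adjusted p = 0.176). Abcc1, a basolateral exporter of glutathione conjugates, was higher in each Vil.Cre Maf.flox library, with 22.0, 17.1 and 17.2 CPM, against 13.2, 12.7 and 15.5 CPM in Maf.flox, and had a log2 fold change of 0.44 (adjusted p = 0.201, edgeR). Among 15 xenobiotic receptor and partner genes, 14 were below 0, and Maf, the deleted gene, was the 1 called. The small Maf gene Maff had a log2 fold change of -0.61 (adjusted p = 0.101, edgeR). It was called by DESeq2 (adjusted p = 0.0248) and not by limma-voom (adjusted p = 0.131).

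**Figure D5:**
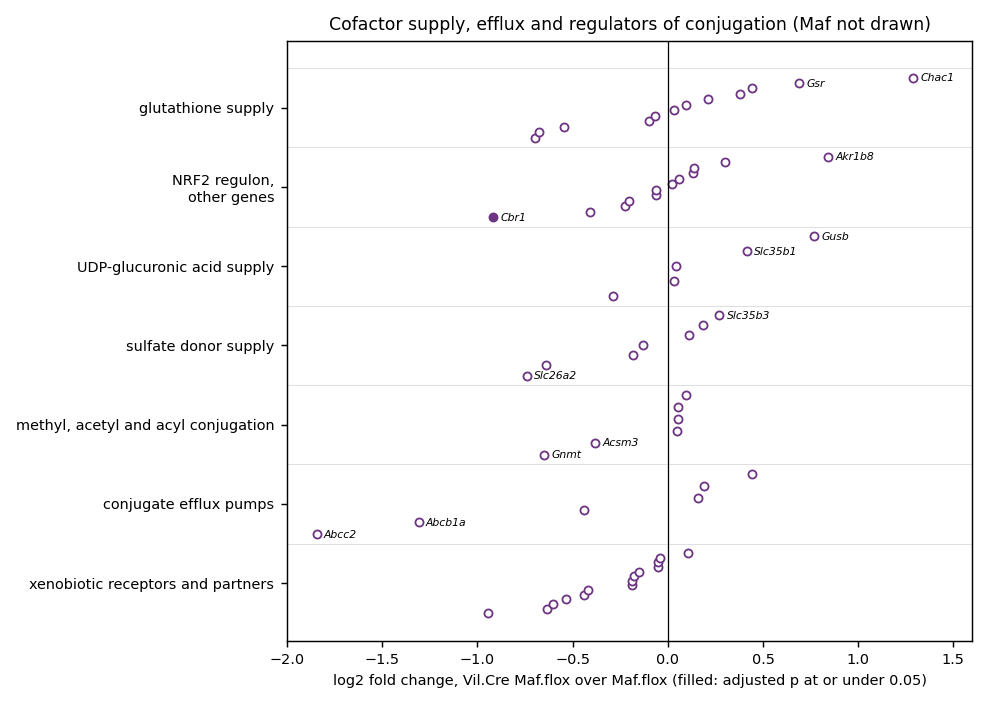
Log2 fold change (Vil.Cre Maf.flox over Maf.flox) of tested genes in the lists of cofactor supply, NRF2 targets, efflux and regulators, 1 circle per gene. Maf, at -9.89, is not drawn, and Cbr1 is the gene filled for an adjusted p at or under 0.05. Abcc2 at -1.84 lies farthest left and Chac1 at 1.29 farthest right.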

How the data were processed

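The authors deposited, per the file headers, a count and an FPKM value per gene and library. The tools named in the submitters' processing notes are featureCounts 1.5.0-p3, HISAT2 2.0.5 and DESeq2, and the build is GRCm38 (mm10). Libraries were made from poly-A RNA, per the labels' protocols, and strand use is not given in the sources used here. The deposited FPKM is the count over gene length over a library size of 0.953 to 1.07 times the summed counts, and was used for levels only. A spreadsheet had turned 24 symbols into dates, and these were put back.

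The test was that of edgeR 4.0.16 (R 4.3.3; filterByExpr with a least count of 10, TMM, robust quasi-likelihood F test, Benjamini-Hochberg over 13740 genes, threshold 0.05), with genotype as the only term. CPM values are TMM-normalised, and intervals are 95%. Replicate libraries were not copies of each other (chi-square of 36.03 to 132 per gene within groups). Alternatives were RLE and upper quartile scaling, no filter and a stricter one, DESeq2 1.42.0, limma-voom (limma 3.58.1), other thresholds, a replicate block, a sex term and each library left out; counts of groups that do not overlap under other scalings were chosen after seeing the data. Counts need no pseudocount alternative.

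Members, gene lists and marker lists were chosen with earlier results of these data known. Genes were named by rule: called members; in each family, the 3 most abundant and the 3 with the smallest p; members at least 2-fold apart without overlap; genes within 1.5 times of the 60-count limit; and in each list, called genes and the 2 with the smallest p. Members outside the rule are named to account for every member, and Gclm, Oplah, Pgd, Abcc1, Slc40a1 and Cubn were chosen after their values were seen. All 54 members were found in GENCODE M21, 51 with the same coordinates. Shared 75-base stretches were counted between GENCODE transcripts. At these depths 1 CPM stands for 17.5 to 24.8 counts, so members under 1 CPM rest on few counts.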

Additional observations from a re-analysis of the deposited data

How the results depend on the processing

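The count of members called moved with the method. It was 0 in the edgeR fit, with RLE or upper quartile scaling, a stricter filter, limma-voom and a sex term. It was also 0 at an adjusted p of 0.01 and with all but 1 of the libraries left out. Without a filter it was 2 (3.70%, Gstt1 and Ephx1), at 1.58% of all genes. With DESeq2 it was 8 (14.8%), at 5.09% of all genes. At an adjusted p of 0.1 it was 2 of 54 (Ephx2 and Ephx1), where 372 of 13740 tested genes were called. Leaving out libraries gave 0 to 4, the 4 (Ephx2, Gstm1, Ces2a, Gstt1) without Maf.flox replicate 3, at 5.0% of all genes. Calls over all genes were 75, against 365 without a filter, 742 with DESeq2, 30 with limma-voom, 38 with a sex term, 2 and 372 at thresholds of 0.01 and 0.1, and 8 to 701 with libraries left out. Same-numbered libraries deviated together with r of 0.092, -0.026 and 0.269, and the numbers were therefore not read as pairs; with a replicate block 440 genes and 4 members (Ephx2, Gstt1, Ephx1, Ces2g) were called, at 3.2% of all genes. The median log2 fold change of the members stayed between -0.36 and -0.17. That of Gsta was -0.97 with the stricter filter, which left 3 of its genes, and -0.73 to -0.12 with libraries left out; that of Ces1 was -0.95 without Vil.Cre Maf.flox replicate 3 and up to -0.37 without others, where the cause was not tested. With libraries left out, the medians ranged from -0.57 to -0.35 for Gstm, -0.01 to 0.12 for other Gst, -0.13 to 0.03 for Mgst, -0.47 to -0.05 for Ugt1a, -0.29 to 0.02 for Ugt2, -0.51 to -0.28 for Sult, -0.69 to -0.31 for Ces2, 0.19 to 0.31 for Nqo and -1.23 to -1.01 for Ephx. Over 15 fits 39 members kept the sign of their log2 fold change (31 below 0, 8 above), 15 did not, and 10 (18.5%) were called in at least 1 of the alternatives, against 7.07% of all tested genes.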

Other observations

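Within sex, as Xist and Y-linked counts give it, the median log2 difference of the members was -0.33 in males (2 Vil.Cre Maf.flox libraries, 1 Maf.flox library), with 39 of 54 below 0, and -0.21 in females (1 and 2 libraries), with 44 of 54 below 0. The Ephx medians were -1.06 in males and -1.01 in females, and the Nqo medians 0.27 and 0.21. The Ces1 median was -1.06 in males and -0.53 in females, and that of Gsta -0.88 and -0.17. With 1 library on one side of each, these differences have no test.

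Genes of like name outside the rule were measured too. Gstcd, a transferase-related protein-coding gene, had a log2 fold change of -0.05 (95% interval -0.50 to 0.40). The pseudogene Gstp-ps, whose sequence is shared with Gstp1 and Gstp2, had 33.1, 32.7 and 24.9 CPM in Vil.Cre Maf.flox and 31.0, 25.8 and 26.2 CPM in Maf.flox. The pseudogene Gstm2-ps1 had 0.36, 0.88 and 0.39 CPM in Vil.Cre Maf.flox and 1.22, 1.20 and 0.52 CPM in Maf.flox, and Ces2d-ps had 0.51, 1.53 and 1.07 CPM in Vil.Cre Maf.flox and 1.14, 0.52 and 0.38 CPM in Maf.flox.

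Other cell and segment markers varied beside the members. Tuft cell markers summed to 15.1 to 17.1 CPM in Vil.Cre Maf.flox and 19.6 to 87.0 CPM in Maf.flox, with 8 of 8 below 0 and 0 called by edgeR (8 had an unadjusted p under 0.05). Paneth markers summed to 5704 to 8277 CPM in Vil.Cre Maf.flox and 4133 to 27190.0 CPM in Maf.flox. Markers of the proximal small intestine summed to 135 to 171 CPM in Vil.Cre Maf.flox and 413 to 742 CPM in Maf.flox. Without Lct, the other 4 genes summed to 121 to 157 CPM in Vil.Cre Maf.flox and 96.1 to 114 CPM in Maf.flox, and the iron exporter gene Slc40a1 had a log2 fold change of 1.04 (adjusted p = 0.0736, edgeR). Markers of the distal small intestine summed to 6049 to 12197 CPM in Vil.Cre Maf.flox and 5865 to 10812 CPM in Maf.flox, most of it Fabp6. Without Fabp6 the other 3 genes summed to 383 to 584 CPM in Vil.Cre Maf.flox and 666 to 1284 CPM in Maf.flox, and the receptor gene Cubn had a log2 fold change of -2.22 (adjusted p = 0.0984, edgeR). Goblet markers summed to 15215 to 28934 CPM in Vil.Cre Maf.flox and 15306 to 34068 CPM in Maf.flox. Enteroendocrine markers summed to 265 to 521 CPM in Vil.Cre Maf.flox and 296 to 786 CPM in Maf.flox, and stem cell markers to 1974 to 2682 CPM in Vil.Cre Maf.flox and 2263 to 3143 CPM in Maf.flox. Their part in the differences of the members was not tested.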
